A study of Mus musculus with 6 samples.

Results

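The imprinted genes described here are 35 mouse genes. Each is listed as expressed mainly or wholly from the maternal or the paternal allele, or for Gnas from either, by transcript. The array does not tell the alleles apart. Maternal or paternal expression was therefore taken from the list and was not measured in this tissue. The genes were chosen by gene name among the non-control features of the array. Of the 35 genes, 34 had at least 1 feature, 70 features in all out of 55681, and Rian had none under that name. After features not well above background were set aside, 31 genes (64 features) were tested among 21478 genes. Phlda2, Peg10 and Rasgrf1 had features but were too dim to be tested.

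The arteries came from C57BL/6 fetuses at E18.5. Nod1 -/- dams had been mated with Nod1 +/- sires, and each dam received 500 µg of FK565, a synthetic ligand of the intracellular peptidoglycan receptor NOD1, under the skin 6 h before the fetal aortic arteries were removed. 3 arrays of Nod1 +/- and 3 arrays of Nod1 -/- littermate fetuses were compared. All 6 arrays share the Nod1 -/- dam and the ligand, so the comparison is between fetuses that carry 1 working Nod1 allele and fetuses that carry none, and no array without ligand was analysed here. In this cross the working allele always came from the father. The sources used here do not say how many fetuses went onto an array or whether arrays of a genotype came from separate litters, and p-values then measure only the spread between these samples.

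Genomic imprinting marks some genes with DNA methylation in the egg or the sperm, and the mark is kept in the body cells of the offspring so that only 1 parental copy is read. Many imprinted genes lie in clusters that hold a long noncoding RNA and an imprinting control region. In the fetus, paternally expressed genes such as Igf2, Mest and Plagl1 are known for promoting growth, and maternally expressed genes such as H19, Cdkn1c, Grb10 and Igf2r for restraining it. Several are abundant in embryonic mesenchyme, the source of much of the vessel wall, and fall in expression after birth.

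Several clusters hold an RNA that encodes no protein, and the array features that read these RNAs are shown first. Each is the brightest kept feature of its gene, 60 bases long, as deposited with the scanner files, which place it on the mm9 build. H19, a maternally expressed RNA next to Igf2, was read at chr7:149761492-149761551 on the minus strand. Meg3 and Mirg, maternally expressed RNAs of the Dlk1 cluster, were read at chr12:110809678-110809737 and chr12:110987569-110987628 on the plus strand. Kcnq1ot1, the paternally expressed antisense RNA of the Kcnq1 cluster, was read at chr7:150440140-150440199 on the minus strand. Airn, the paternally expressed antisense RNA of Igf2r, was read at chr17:12944784-12944843 on the plus strand.
H19: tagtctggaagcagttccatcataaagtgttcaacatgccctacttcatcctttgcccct
Meg3: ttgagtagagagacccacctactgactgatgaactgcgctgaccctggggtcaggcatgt
Mirg: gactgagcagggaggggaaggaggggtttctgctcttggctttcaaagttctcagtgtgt
Kcnq1ot1: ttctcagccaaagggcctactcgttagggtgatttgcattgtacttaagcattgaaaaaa
Airn: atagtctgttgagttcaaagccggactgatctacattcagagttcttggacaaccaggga

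Promoter windows are shown for 3 genes with large changes, Ascl2 (higher in Nod1 +/-), Nap1l5 and Usp29 (both lower). The windows run from 250 bases before to 50 bases after the gene start, are 300 bases long, and come from RefSeq on the GRCm38.p6 build: Ascl2 at chr7:142969215-142969514 on the minus strand, Nap1l5 at chr6:58907077-58907376 on the minus strand and Usp29 at chr7:6730333-6730632 on the plus strand. Capitals mark CG dinucleotides, the letters at which mammalian DNA is methylated.
Ascl2: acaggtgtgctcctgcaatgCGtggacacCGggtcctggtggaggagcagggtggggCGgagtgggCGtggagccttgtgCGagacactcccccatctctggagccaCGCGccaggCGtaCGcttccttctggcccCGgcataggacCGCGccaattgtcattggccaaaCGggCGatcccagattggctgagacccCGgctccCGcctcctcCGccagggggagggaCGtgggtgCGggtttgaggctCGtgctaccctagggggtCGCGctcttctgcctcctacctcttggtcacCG
Nap1l5: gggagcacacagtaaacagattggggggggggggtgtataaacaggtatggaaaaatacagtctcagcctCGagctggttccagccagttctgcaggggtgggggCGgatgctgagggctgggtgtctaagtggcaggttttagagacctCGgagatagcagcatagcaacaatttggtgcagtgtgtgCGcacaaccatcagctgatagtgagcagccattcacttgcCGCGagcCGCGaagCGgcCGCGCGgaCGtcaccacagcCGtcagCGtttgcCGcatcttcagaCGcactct
Usp29: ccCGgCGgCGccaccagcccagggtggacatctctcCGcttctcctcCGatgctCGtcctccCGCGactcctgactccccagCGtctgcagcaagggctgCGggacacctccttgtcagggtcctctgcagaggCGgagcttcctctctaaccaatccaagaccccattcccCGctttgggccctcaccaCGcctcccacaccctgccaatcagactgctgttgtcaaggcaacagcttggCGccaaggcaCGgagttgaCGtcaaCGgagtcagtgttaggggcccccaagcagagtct
The Ascl2 window held 23 CG dinucleotides, and the Nap1l5 and Usp29 windows held 17 each. The median was 12 over 47 windows of 30 listed genes and 7 over all 32851 windows. H19, Cdkn1c, Peg10, Sgce and Impact had no window in the table. The Usp29 window and that of its divergent neighbour Peg3 share 263 bases. The letters GGGGCCCC, a site bound by the zinc finger protein PLAGL1 and the same on both strands, begin at base 281 of the Usp29 window. They were found in 4 of the 47 windows (Peg3, Usp29, Rasgrf1 and Ppp1r9a) and in 1.08% of all windows. The Usp29 match lies in the bases shared with the Peg3 window, so both windows hold the same match. The letters GGANTTTCC, a form of the NF-kB site, were found on neither strand of the 47 windows and in 1.25% of all windows. GCCATNTT, the core of the YY1 site, was found on either strand in windows of Mkrn3, Slc38a4 and Ube3a and in 6.05% of all windows. None of the 3 strings contains another, and a match is only a match of letters.

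Levels are given as log2 signal relative to the 75th percentile of the array, so a value is comparable between arrays for 1 feature and not between features. A gene's difference is Nod1 +/- minus Nod1 -/- with its standard error (SE), and a gene was called when the adjusted p of limma's moderated test, adjusted by Benjamini-Hochberg over all 21478 genes, was below 0.05. Of all genes tested, 18.7% were called, 7.66% higher and 11.0% lower, and the median difference of all genes was -0.10. Nod1 itself did not differ at its feature (0.13, adjusted p = 0.648), and whether that feature lies in the deleted part was not tested. Smooth muscle markers of the labelled tissue were all measured, and 0 of 10 were called (1 at an unadjusted p under 0.05). Other marker lists held called genes, and their counts are to be read against the 18.7% of all genes. Of 10 neutrophil markers 5 were higher, with an averaged level of 1.78 to 2.30 in Nod1 +/- and 0.08 to 0.28 in Nod1 -/-. Of 7 cartilage markers 4 were lower, of 12 fibroblast markers 3, of 10 dividing-cell markers 3, of 9 macrophage markers 3 and of 10 endothelial markers 2. The called share was thus 25% for the fibroblast and 20% for the endothelial list. Of 6 Schwann cell markers 2 were lower and 1 was higher, with 3 below and 3 above 0. Of 5 epithelial markers 2 were lower, with 3 above 0 and a median of 0.02. None of 6 red cell markers was called (3 at an unadjusted p under 0.05), but their averaged level was 2.63 to 3.35 in Nod1 +/- and 3.59 to 4.25 in Nod1 -/-. Of 6 fat markers and 10 skeletal muscle markers none was called (0 at an unadjusted p under 0.05). Skeletal muscle markers averaged 5.50 on the first Nod1 +/- array and 0.55 to 1.13 on the other 5, and sympathetic and chromaffin markers averaged 2.19 on the first Nod1 -/- array and -1.47 to 0.56 on the others. In whole tissue, fewer cells of a type and less RNA per cell cannot be told apart. The part of these lists in the results below was not tested, except where a value without the first array of both genotypes is given. Xist, the RNA of the inactive X chromosome of females, was not balanced between genotypes. Its level was 1.35 and 1.49 on Nod1 +/- replicates 1 and 3 and 1.09 on Nod1 -/- replicate 1. On the other arrays it was -6.90 to -6.24. Xist signal served as a covariate in an alternative fit, where 10.6% of all genes were called.

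Imprinted genes were called in both directions, more of them lower than higher in Nod1 +/- aorta. Of the 31 tested, 3 were higher (Ascl2, Asb4 and Peg12) and 8 were lower (Nap1l5, Slc22a18, Usp29, Magel2, Mest, Sgce, Plagl1 and Slc38a4), together 35.5% against 18.7% of all genes. Their median difference was -0.25, and 24 of 31 lay below 0, against a median of -0.10 and 12898 of 21478 for all genes. The arrays of the genotypes did not overlap for 14 of 31, close to the 42.4% of all genes. Among the 18 paternally expressed genes 1 was higher and 7 were lower (median -0.44), and among the 12 maternally expressed genes 2 were higher and 1 was lower (median -0.06). The difference between the parental groups was not tested. With arrays scaled on the median in place of the 75th percentile, which moves the median of all genes to 0.01, 3 members were higher and 3 lower; of all genes 11.7% were then called, 1580 higher and 926 lower. Without the first array of both genotypes 1 was higher and 2 were lower, where 2.98% of all genes were called. Without Nod1 -/- replicate 1 or without replicate 2, 3 members were called in either case, 1 higher and 2 lower, where 8.64% and 6.79% of all genes were called. With slide row as a block 1 was higher and 1 lower, where 4.81% of all genes were called.

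**Figure D1:**
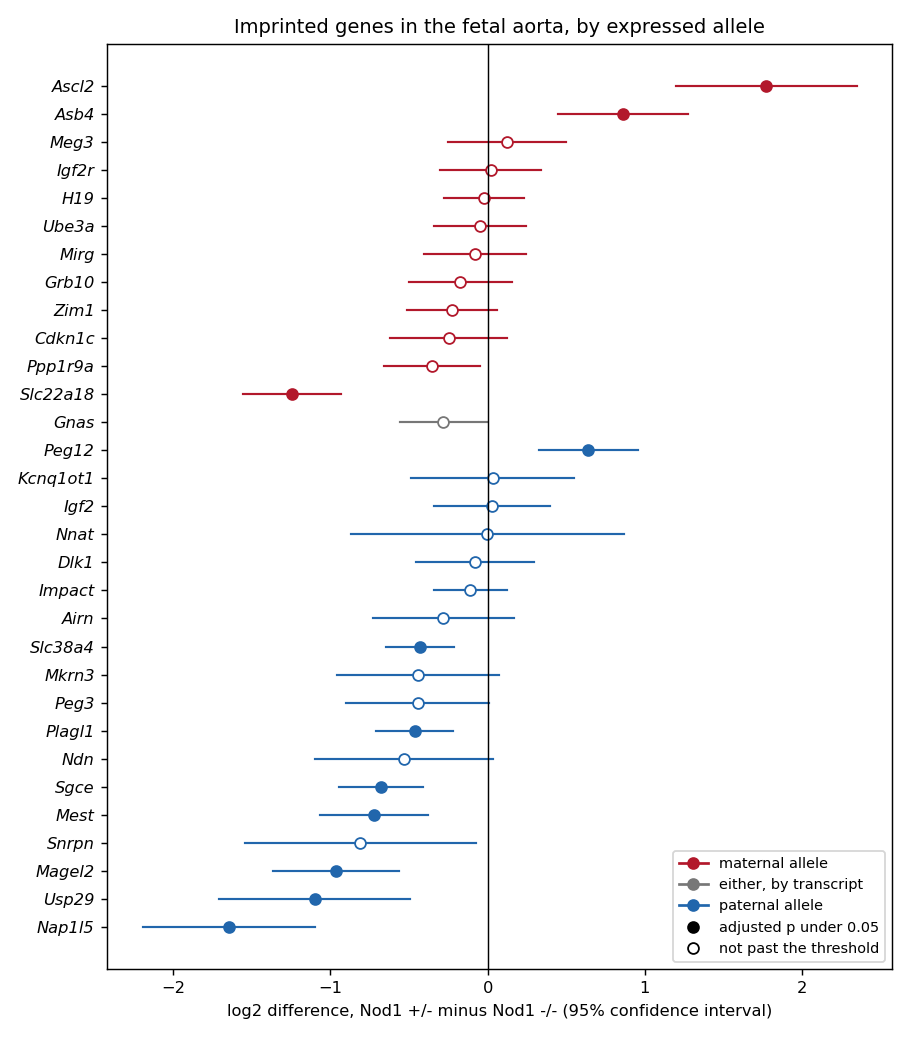
Log2 difference (Nod1 +/- minus Nod1 -/-, x axis) with its 95% confidence interval for the 31 tested imprinted genes, grouped by expressed allele, with filled points for adjusted p below 0.05. Of the 18 paternally expressed genes 15 lie left of 0, with Nap1l5 at -1.65, and Ascl2 at 1.77 lies farthest to the right. Of all 21478 tested genes 12898 were below 0.

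Ascl2, a basic helix-loop-helix transcription factor of the placenta and of intestinal stem cells that is expressed from the maternal allele, was the most strongly raised member. Its log2 level was 0.10, -0.13 and 0.18 on the Nod1 +/- arrays and -1.24, -1.80 and -2.14 on the Nod1 -/- arrays. All 3 Nod1 +/- arrays lay above all 3 Nod1 -/- arrays, by more than the spread within either genotype. The difference was 1.77 (SE 0.24, n = 3 per genotype), a 3.42-fold higher signal, with an adjusted p of 0.00671 in limma. It was called under each of the 19 alternative settings run, with adjusted p between 0.00189 and 0.0379.

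Asb4, a maternally expressed ankyrin repeat and SOCS box protein that is found in the vasculature during development, was also higher. Its level was 0.82, 0.35 and 0.21 in Nod1 +/- and -0.39, -0.44 and -0.39 in Nod1 -/-. The Nod1 -/- arrays were nearly alike, and the first Nod1 +/- array was the highest. The difference was 0.86 (SE 0.17, n = 3), 1.82-fold, with a limma adjusted p of 0.0208. A second, dimmer feature of Asb4 gave -0.11 and was not called, and the mean of both features gave 0.38 (adjusted p = 0.125). The limma adjusted p was 0.0521 without Nod1 +/- replicate 2, 0.0659, 0.0803 and 0.0518 without Nod1 -/- replicates 1, 2 and 3. It was 0.141 with slide row as a block, 0.064 with no filter on dim features, 0.0582 with the Xist covariate and 0.107 without the first array of both genotypes.

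Peg12, a paternally expressed gene of the Prader-Willi region related to the Wnt pathway regulator FRAT, was the other raised member. Its level was 0.45, 0.46 and 0.78 in Nod1 +/- and 0.03, -0.17 and -0.08 in Nod1 -/-, with no overlap. The difference was 0.64 (SE 0.13, n = 3), 1.56-fold, with a limma adjusted p of 0.0228. Its second feature gave 0.55 (SE 0.42) and was not called. Its adjusted p in limma rose to between 0.051 and 0.0868 when any 1 array other than Nod1 +/- replicate 3 was left out. It was 0.138 with slide row as a block, 0.147 with the mean of both features, 0.0742 with no filter on dim features, 0.0599 with the Xist covariate and 0.12 without the first array of both genotypes.

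Nap1l5, a paternally expressed retrogene related to nucleosome assembly proteins, had the lowest difference in the main fit. With normexp background Slc22a18 was lower (-1.045), and Nap1l5 was at -0.86. Its level was -2.87, -2.96 and -3.46 in Nod1 +/- and -1.08, -1.65 and -1.62 in Nod1 -/-. Every Nod1 -/- array was higher than every Nod1 +/- array. The difference was -1.65 (SE 0.23, n = 3), a 3.13-fold lower signal in Nod1 +/-, with a limma adjusted p of 0.00725. At its second feature no Nod1 +/- array was well above background, so that feature was kept through the Nod1 -/- arrays alone. Its signal was at least 2.75-fold higher in Nod1 -/-. The call was kept under 18 of 19 alternatives and lost with slide row as a block (-1.47, adjusted p = 0.0795). Nod1 -/- replicates 1 and 2 lay in 1 slide row and the other 4 arrays in the other, so row and genotype are partly confounded. With slide row as a block, here and elsewhere, the difference rests on Nod1 -/- replicate 3 alone against the 3 Nod1 +/- arrays. An effect of row and the loss of arrays therefore cannot be told apart where a call was lost.

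Slc22a18, a maternally expressed organic cation transporter in the Kcnq1ot1 cluster, was lower. Its level was -1.24, -1.07 and -1.07 in Nod1 +/- and 0.31, 0.10 and -0.06 in Nod1 -/-. The gap between the genotypes was wider than the spread within them. The difference was -1.25 (SE 0.13, n = 3), 2.37-fold, with a limma adjusted p of 0.00291, the smallest of the members. It was called under each of the 19 alternatives (adjusted p 0.000971 to 0.0473). Slc22a18 and Ascl2 belong to 1 cluster and changed in opposite directions, while Cdkn1c, a cell cycle inhibitor of that cluster, was at -0.25 (adjusted p = 0.288) and Kcnq1ot1 at 0.03 (adjusted p = 0.927).

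Usp29 and Magel2 are paternally expressed genes of the ubiquitin system, a ubiquitin-specific protease and a partner of ubiquitin ligases. Usp29 was at -2.65, -3.53 and -3.01 in Nod1 +/- and -1.76, -1.87 and -2.25 in Nod1 -/-. Its difference was -1.10 (SE 0.25, n = 3; limma adjusted p = 0.0321), and -0.56 with normexp background. No array of 1 genotype reached the range of the other, but the spread within Nod1 +/- was wide. Peg3, the zinc finger gene that faces Usp29, was at -0.45 (adjusted p = 0.146) and Zim1 at -0.23 (adjusted p = 0.217), neither called. Usp29 lost its call without Nod1 +/- replicates 2 (0.0604) and 3 (0.0656) and without Nod1 -/- replicates 1 (0.0974) and 2 (0.11), as limma adjusted p-values. Its call was also lost with slide row as a block (0.238), median scaling (0.059), no filter on dim features (0.0847) and without the first array of both genotypes (0.0901). Magel2 was at -1.42, -1.93 and -1.75 in Nod1 +/- and -0.59, -0.71 and -0.92 in Nod1 -/-. Its difference was -0.96 (SE 0.16, n = 3; limma adjusted p = 0.0139), 1.95-fold. It was not called without Nod1 -/- replicate 1 (0.0517) or replicate 2 (0.0611), without the first array of both genotypes (0.0622), or with slide row as a block (0.124), again as limma adjusted p-values.

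Mest, Sgce, Plagl1 and Slc38a4, all paternally expressed, were lower by smaller amounts. Mest, an alpha/beta hydrolase family member long used as a marker of embryonic mesenchyme, was at 5.34, 5.18 and 5.34 in Nod1 +/- and 6.21, 6.05 and 5.76 in Nod1 -/-. Its difference was -0.72 (SE 0.14, n = 3; limma adjusted p = 0.0208), and its other features gave -0.67 (called) and -0.65 (not called). The 3 features thus moved together. Sgce, the epsilon-sarcoglycan of the membrane complex that ties the cytoskeleton to the matrix, was at 3.43, 3.43 and 3.29 against 4.11, 4.16 and 3.91. Its difference was -0.68 (SE 0.11, n = 3; limma adjusted p = 0.012). Plagl1, a zinc finger transcription factor that regulates other imprinted genes, was at 7.02, 6.89 and 6.86 against 7.47, 7.40 and 7.29. Its difference was -0.46 (SE 0.10, n = 3; limma adjusted p = 0.0282). The remaining Plagl1 features gave -0.55, -0.47 and -0.37, the last not called. Slc38a4, a neutral amino acid transporter, was at 2.28, 2.27 and 2.22 against 2.67, 2.77 and 2.63, a difference of -0.43 (SE 0.09, n = 3; limma adjusted p = 0.0251). None of these 4 overlapped between genotypes, which also held for 42.4% of all genes. Of the 12 fibroblast markers, 3 of which were lower, the averaged level was 4.07 to 4.24 in Nod1 +/- and 4.40 to 4.59 in Nod1 -/-, and its part in these differences was not tested.

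The calls of these 4 genes were lost when certain single arrays were left out. Sgce had a limma adjusted p of 0.0503 without Nod1 -/- replicate 1 and 0.053 without replicate 2. For Mest the adjusted p was 0.057 and 0.0681 without Nod1 +/- replicates 1 and 2 and 0.0632 and 0.0805 without Nod1 -/- replicates 1 and 2. Plagl1 was not called without any 1 array other than Nod1 -/- replicate 3 (0.0586 to 0.0994), and Slc38a4 likewise (0.0506 to 0.0899). With median scaling none of the 4 was called (Mest 0.0818, Sgce 0.0807, Plagl1 0.193, Slc38a4 0.214), and with slide row as a block none was called either (0.15, 0.1, 0.199 and 0.169, in that order). Without the first array of both genotypes the values were 0.147, 0.129, 0.185 and 0.204. With no filter on dim features the calls of Mest (0.0669), Plagl1 (0.0974) and Slc38a4 (0.0951) were lost, and with the Xist covariate those of Plagl1 (0.062) and Slc38a4 (0.077). All 11 called members kept their direction under every alternative. Their arrays did not overlap between genotypes, so leaving out arrays, array weights and the replicate block could not have reversed it. The intensity trend leaves the difference itself unchanged.

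**Figure D2:**
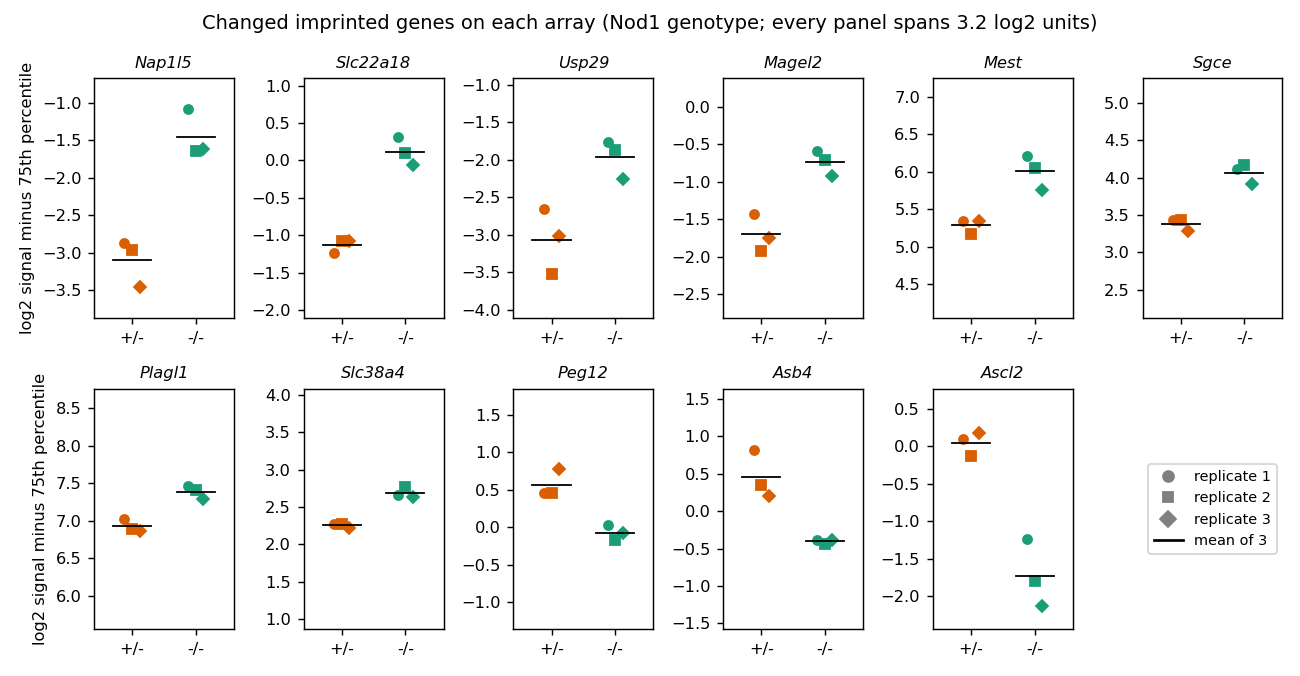
Log2 signal relative to the array's 75th percentile (y axis) on each array for the 11 called imprinted genes, by Nod1 genotype, with bars at the mean of 3 arrays and every panel spanning the same height. The genes shown were chosen by the genotype test, and the arrays of the genotypes do not overlap in any panel. The same held for 42.4% of all genes. Ascl2, Asb4 and Peg12 are higher in Nod1 +/- and the other 8 are lower.

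Whereas Mest and Plagl1 were lower, the growth-related members Igf2, Igf2r, H19 and Grb10 did not pass the test. Igf2, the fetal growth factor expressed from the paternal allele, differed by 0.03 (95% confidence interval -0.34 to 0.40), and Igf2r, the maternally expressed receptor that clears it, by 0.02 (-0.30 to 0.34). H19 was read by 7 features. At the brightest it was 8.74, 8.61 and 8.63 in Nod1 +/- and 8.74, 8.55 and 8.76 in Nod1 -/-, overlapping throughout, with a difference of -0.02 (-0.27 to 0.23). The 7 features ranged from -0.13 to 0.26 and none was called. Grb10, an adaptor that restrains insulin and IGF receptors, was at -0.17 (adjusted p = 0.399). Differences this close to 0 changed sign with the scaling for H19, which was 0.08 with median scaling.

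The noncoding RNAs were likewise not called, 0 of 5 (0 at an unadjusted p under 0.05) against 18.7% of all genes, with a median of -0.02. With 5 genes this count cannot set them apart from all genes. Airn was at 4.002, 3.94 and 4.48 in Nod1 +/- and 4.63, 4.24 and 4.40 in Nod1 -/-. The genotypes overlapped, the difference was -0.28 (adjusted p = 0.319), and its 4 features ranged from -0.28 to -0.02. Meg3 was at 7.51, 7.48 and 7.89 against 7.68, 7.38 and 7.45, a difference of 0.12 (adjusted p = 0.601). Its 3 features gave 0.12, 0.02 and -0.14. Mirg was at -0.08, and Dlk1, the paternally expressed Notch-family membrane protein of the same cluster, was at -0.08 (adjusted p = 0.741). Between the outermost features of Meg3 and Mirg the array holds 64 features for intergenic transcribed regions, 48 of them well above background. Of these 48 limma called 0 (5 at an unadjusted p under 0.05, median -0.16), against 15.9% of all kept features. On the strand of Meg3 the 33 kept had a median of -0.06, and on the opposite strand the 15 kept had a median of -0.36. A predicted transcript without a gene symbol on the strand of Meg3, 151.4 kb beyond the first Meg3 feature, was called higher (1.30, adjusted p = 0.0137 in limma over 30166 features); it was singled out after its value was seen.

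**Figure D3:**
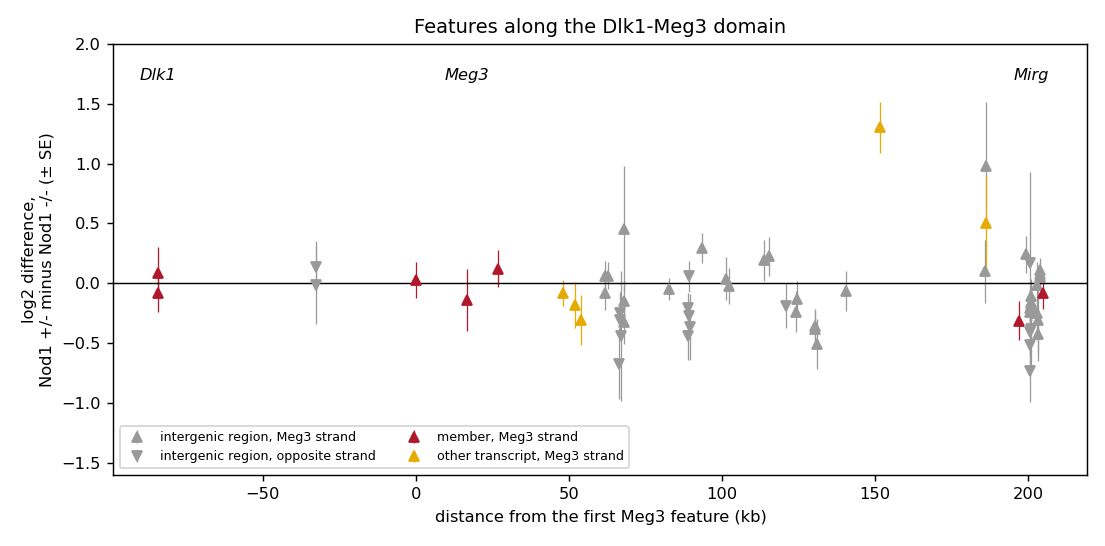
Log2 difference ± SE (y axis) of each kept feature along the Dlk1-Meg3 cluster by distance from the first Meg3 feature in kb (x axis), with triangles pointing up for the strand of Meg3 and down for the other. The features of Dlk1, Meg3 and Mirg lie between -0.31 and 0.12, and 1 predicted transcript lies apart at 1.30.

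Snrpn, Ndn, Mkrn3 and Nnat, 4 paternally expressed genes that were not called, were highest on the first Nod1 -/- array. Snrpn, a splicing protein gene of the Prader-Willi region, was at -0.27, -0.31 and -0.83 in Nod1 +/- and 0.92, 0.25 and -0.15 in Nod1 -/-, a difference of -0.81 that limma did not call (adjusted p = 0.113; 0.0467 with the replicate block). Ndn, which encodes the growth suppressor necdin, was at -0.53 (adjusted p = 0.159) and Mkrn3, a ring finger protein, at -0.44 (adjusted p = 0.191). Nnat, a small membrane protein of developing neurons, was at 1.23, 1.30 and 0.87 against 1.82, 1.18 and 0.40, a difference of -0.00 that became 0.34 without Nod1 -/- replicate 1. For each of the 4 genes the highest array was Nod1 -/- replicate 1, which also held the highest sympathetic and chromaffin marker level, 2.19. Of those 13 markers 0 were called (1 at an unadjusted p under 0.05) and 13 lay below 0, as did 12898 of all 21478 genes. These 4 genes were set beside the markers after their values were seen. Being highest on that array was not particular to the 4 genes. It also held for Mest, Plagl1, Magel2, Nap1l5, Usp29, Slc22a18, Dlk1, Airn, Cdkn1c and Gnas, among others. Peg3, another paternally expressed gene, did not have this order, with 2.28 on Nod1 -/- replicate 1 and 2.66 and 2.59 on replicates 2 and 3. Within Nod1 +/- the markers were highest on replicate 1 (0.51), where Mkrn3 was lowest (-2.71). The part of nerve tissue in the levels of the 4 genes was not tested.

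**Figure D4:**
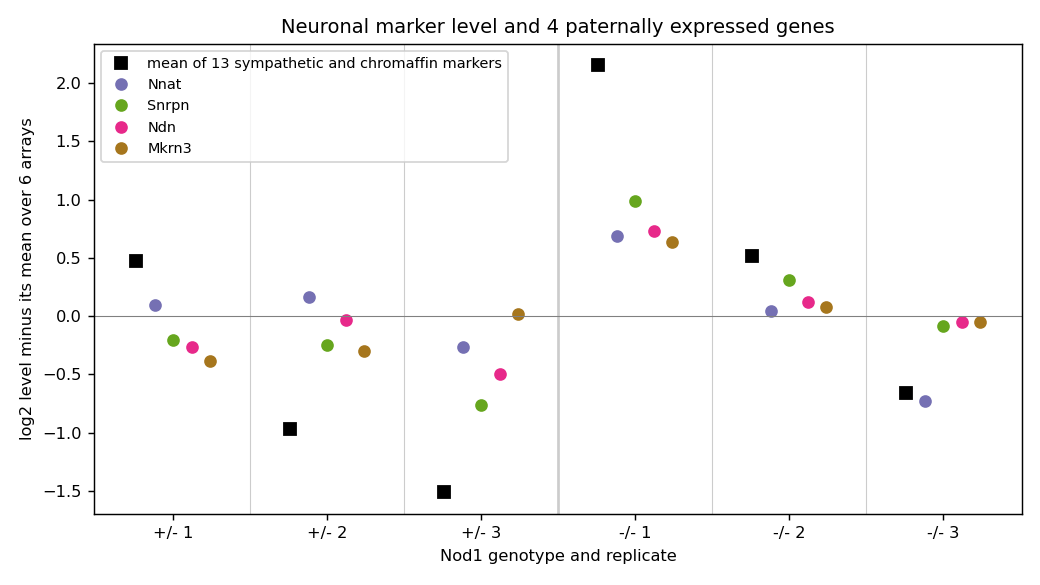
Log2 level minus its mean over the 6 arrays (y axis) for Nnat, Snrpn, Ndn and Mkrn3 and for the mean of 13 sympathetic and chromaffin markers, on each array (x axis). All 5 are highest on the first Nod1 -/- array.

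Gnas gives transcripts from the maternal, the paternal or both alleles depending on the promoter, and encodes the stimulatory G protein subunit among others. Its brightest feature was at 7.08, 7.12 and 7.12 in Nod1 +/- and 7.53, 7.43 and 7.20 in Nod1 -/-. The arrays did not overlap, but the difference of -0.28 was not called (adjusted p = 0.134; 0.0443 with array weights). The other 3 features gave -0.31, -1.06 and -0.43, none called, and the one at -1.06 ranged from -1.75 to 1.35 within Nod1 -/-. Impact, a translational regulator, was at -0.11 and Ube3a, the ubiquitin ligase of the Angelman region, at -0.05, neither called. Ppp1r9a, a maternally expressed actin-binding protein, was at -0.35 without overlap and was not called (adjusted p = 0.102; 0.0417 with array weights).

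Of the 20 tested members read by more than 1 kept feature, the called ones can be compared feature by feature. Since the brightest feature stands for the gene, only the further features add to its value, and nothing is read from these counts against the 15.9% of all kept features that were called. Beside the brightest feature, 2 of the other 3 of Plagl1 and 1 of the other 2 of Mest were called. The second of Nap1l5 was also called. It was kept only through the Nod1 -/- arrays, where it was high, so its call adds no separate support. The second features of Asb4 and Peg12 were not called.

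**Figure D5:**
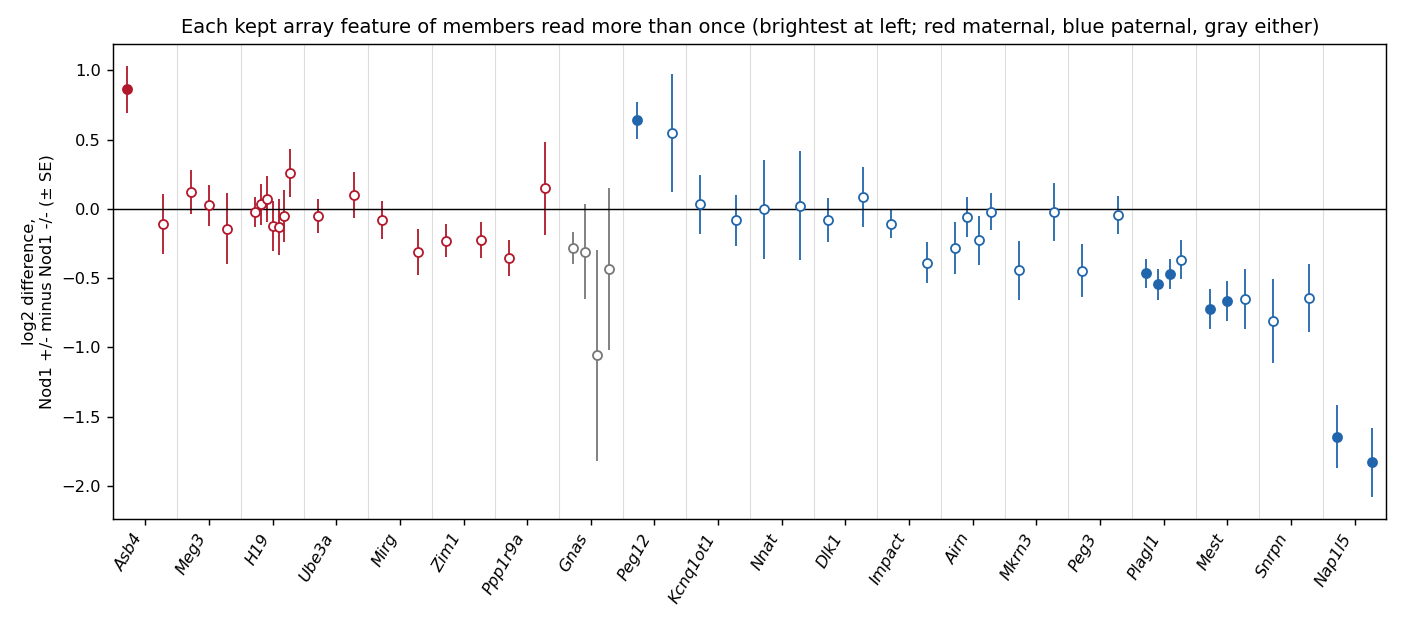
Log2 difference ± SE (y axis) of each kept feature for the 20 imprinted genes read more than once, brightest at left, filled where the adjusted p over all kept features was below 0.05. The features of Mest, Plagl1 and Nap1l5 each lie together below 0, and those of Asb4 lie apart, at 0.86 and -0.11. The second feature of Nap1l5 was kept only through the Nod1 -/- arrays, where it was high.

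Nod1 lies on chromosome 6, whose paternal copy differs between the genotypes at and around Nod1, and 5 tested members share that chromosome. On mm9, Nap1l5 lies 3.98 Mb from the Nod1 feature, Mest 24.2 Mb, Asb4 49.5 Mb, Ppp1r9a 49.8 Mb and Sgce 50.2 Mb. Of the 5, Nap1l5, Mest and Sgce, all paternally expressed, were lower, Asb4 was higher and Ppp1r9a was not called. The strain of the DNA flanking the mutant allele is not given in the sources used here, and its effect and that of Nod1 cannot be told apart for these genes.

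Of 20 tested genes that set, keep or erase the imprint, 2 were higher and 2 were lower, a share of 20.0% that is near the 18.7% of all genes, with a median of -0.08 against -0.10 for all genes. Zfp57, the zinc finger protein that protects methylation at imprinted regions, was higher by 0.94 (SE 0.14, n = 3; limma adjusted p = 0.00957), and Mbd3, a subunit of a chromatin remodelling complex, by 0.44 (0.0338). Tet1, an enzyme that oxidises methylcytosine, was at -0.75 (0.0269) and Hells, a DNA methylation helicase, at -0.47 (0.021). The call of Zfp57 was lost with slide row as a block and without the first array of both genotypes (highest adjusted p 0.0933), and the other 3 were called in 7 to 9 of 19 alternatives. Dnmt1, which copies methylation at cell division, was at -0.13 and not called.

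Of 28 further genes reported as imprinted in some tissue, 3 were higher and 6 lower, 32.1% against 18.7% of all genes (median -0.15 against -0.10). Dcn, the matrix proteoglycan decorin, which is also among the fibroblast markers, was at -0.54 (SE 0.09, n = 3; limma adjusted p = 0.0115). Copg2, a vesicle coat gene that overlaps the end of Mest on the other strand, was at -0.69 (0.0143), the same direction as Mest. Blcap, the host gene of Nnat, was higher by 0.55 (0.0192) while Nnat itself was not called, and Klf14, a Krüppel-like factor near Mest, was at -0.88 (0.0276). The calls of Dcn and Copg2 were lost without Nod1 -/- replicate 1 or 2 (highest adjusted p over the alternatives 0.161 and 0.129), and Blcap and Klf14 were called in 11 and 9 of 19 alternatives.

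In the insulin-like growth factor pathway, in which Igf2, Igf2r and Grb10 act, 4 of 19 tested genes were higher and 2 lower, 31.6% against 18.7% of all genes (median 0.19 against -0.10). Igf1, the related growth factor that is not imprinted, was at 2.13, 1.87 and 2.01 in Nod1 +/- and 3.56, 3.56 and 3.15 in Nod1 -/-, a difference of -1.42 (SE 0.15, n = 3; limma adjusted p = 0.00325) that was called under each of 19 alternatives. Htra1, a secreted protease that cuts IGF-binding proteins, was at -0.94 (0.00512). Irs2, a docking protein of the insulin and IGF receptors, was higher by 0.92 (0.00638) and Igf2bp1, which binds Igf2 mRNA, by 0.74 (0.0117). Htra1, Irs2 and Igf2bp1 lost their calls with slide row as a block and without the first array of both genotypes, and Igf2bp1 also without Nod1 -/- replicate 2 (highest adjusted p 0.0646, 0.0752 and 0.103). Igf2 and its receptor Igf2r were thus not called, whereas Igf1 was; the difference between Igf1 and Igf2 was not tested.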

How the data were processed

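Total RNA of fetal aortic arteries was hybridised to 1-colour Agilent arrays on 1 slide, 3 per Nod1 genotype. The authors deposited the scanner output, in which each intensity had its background removed; the program was Feature Extraction version 10.7.1.1, per the file headers (9.5.1.1 per the submitters' processing notes). The deposited scanner flags mark spots well above background or uneven. The deposited series table, also of intensity values, holds 6 columns with 1 shared distribution (median 33.4); how it was scaled is not given in the sources used here, and it served as an alternative.

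Here log2 intensity minus each array's 75th percentile was used. Spots flagged as outliers were left out, which removed 134 features. A feature was kept if well above background on at least 3 of 6 arrays, and the kept feature with the highest mean stood for a gene. limma 3.58.1 in R 4.3.3 fitted genotype over all 21478 genes, with Benjamini-Hochberg adjustment at 0.05; the script was tested on simulated data. Their small number limits the precision. The members and lists were chosen with earlier results of these data known. Values on every array are given for called members and those with 3 or more kept features, and from each context list up to 4 called genes with the smallest p. Alternatives changed background, scaling, filter, feature choice, variance model, weights, blocks, a covariate and the arrays used.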

Additional observations from a re-analysis of the deposited data

Results flagged for a closer look

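A feature of Rasgrf1, a paternally expressed exchange factor for Ras, was well above background on 1 of 3 Nod1 +/- arrays and on 0 of 3 Nod1 -/- arrays, and so stood outside the test. Its log2 level was -3.90 on Nod1 +/- replicate 3 and -6.77 to -5.92 on the other 5 arrays. The second feature of Rasgrf1 was not well above background on any array.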

How the results depend on the processing

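The 3 higher and 8 lower calls were the same in number with normexp background, quantile scaling, the all-array filter, an intensity trend and the deposited table. Higher and lower calls were 3 and 3 with median scaling, 1 and 4 with no filter on dim features, 1 and 1 with slide row as a block and 1 and 2 without the first array of both genotypes. Higher calls fell to 1 with the mean of a gene's features and with Xist signal as a covariate. Leaving out 1 array gave 1 to 3 higher and 2 to 8 lower. Over all genes, median scaling gave 1580 higher and 926 lower against 1646 and 2366, and 2506 calls in all against 4012; no filter gave 1636, slide row 1033, Xist 2281, array weights 6016 and the first arrays left out 641. Same-numbered arrays had correlations of deviations of 0.083, 0.277 and 0.111, and differently numbered arrays -0.306 to 0.126. These values do not exclude pairing. The numbers are not stated to pair fetuses and were not taken as pairs in the main fit. With the replicate block 3 members were higher and 9 lower, and Snrpn gained a call. With array weights 3 were higher and 10 lower, and Gnas (adjusted p = 0.0443) and Ppp1r9a (0.0417) gained calls.

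Members near 0 changed sign under some settings, and none of these was called in either fit. With normexp background the log2 difference was Igf2r -0.0042. With quantile scaling the log2 difference was H19 0.075, Dlk1 0.019 and Nnat 0.0047. With median scaling the log2 difference was H19 0.082, Dlk1 0.024, Mirg 0.025, Nnat 0.10 and Ube3a 0.055. With the mean of a gene's features the log2 difference was H19 0.0057, Dlk1 0.0015, Kcnq1ot1 -0.025, Nnat 0.011 and Ube3a 0.026. With array weights the log2 difference was H19 0.0079 and Kcnq1ot1 -0.14. With slide row as a block the log2 difference was Igf2r -0.16, Dlk1 0.12, Nnat 0.73 and Ube3a 0.12. With the Xist covariate the log2 difference was Kcnq1ot1 -0.095. With the deposited table the log2 difference was H19 0.075, Dlk1 0.017 and Nnat 0.0016. With the first array of both genotypes left out the log2 difference was Igf2r -0.11, Dlk1 0.073 and Nnat 0.29. Leaving out 1 array in turn gave -0.087 to 0.017 for H19, -0.10 to 0.14 for Igf2, -0.19 to 0.019 for Mirg, -0.011 to 0.21 for Meg3, -0.18 to 0.15 for Kcnq1ot1, -0.37 to 0.34 for Nnat, -0.14 to 0.015 for Ube3a, -0.10 to 0.11 for Igf2r and -0.18 to 0.058 for Dlk1. The causes were not tested. Signal close to background limits Nap1l5's second feature and the 3 untested members. With normexp background the differences of Nap1l5 and Usp29 were -0.86 and -0.56, against -1.65 and -1.10 in the main fit.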
